A study of Sus scrofa with 70 samples.

Results

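Mutually exclusive exon events were taken from the transcript annotation that the study built by merging Ensembl transcripts with long-read isoforms of boar reproductive glands. An event was a pair of different, non-overlapping internal exons that lay between the same splice sites in 2 transcripts of 1 gene and strand, the MX class of SUPPA2. The annotation held 3444 such events in 2106 genes among 93161 alternative splicing events of 7 types, a share of 3.70%. Of these, 407 events in 356 genes had a summed transcript abundance of 1 TPM or more (TPM, the share of a library's transcripts after correction for length) over their 2 forms in all 30 short-read libraries, and these 407 events are the members described here. This filter kept 11.8% of the mutually exclusive events against 39.8% of the events of all 7 types. Of the events left out, 2627 were at 0 TPM in at least 1 library and 410 lay between 0 and 1 TPM in their lowest library. The lowest library of the event just inside the threshold had 1.003 TPM and that of the event just outside it 0.9996 TPM.

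The 30 RNA-seq libraries came from the testis, the epididymis and 3 accessory glands (vesicular, prostate and bulbourethral) of boars 12 months old, with 3 libraries for each gland and breed. The breeds were the Banna mini-pig inbred line (BMI) and the Diannan small-ear pig (DSE), a pig that is not inbred and from which BMI was bred. There was no treatment, and 10 PacBio Iso-seq libraries, 1 for each breed and gland, gave full-length reads of the same transcripts. The labels do not say which libraries came from 1 animal, so p-values measure the spread between these samples only.

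In mutually exclusive splicing a transcript carries one or the other of a pair of neighbouring exons, so that a protein exchanges one segment for another and keeps the rest. Many such pairs arose by duplication of an exon and still resemble each other. The choice is known to depend on the cell type through RNA-binding proteins such as the PTB, ESRP and RBFOX families, and the exons of FGFR2, PKM and the tropomyosins are textbook examples.

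The sequences of 4 pairs show alike exons of equal length, which are the minority among the members, and each pair carries a result given further on. The exons are printed from the RefSeq genome of Sscrofa11.1, the build of the annotation, in the sense of transcription and with the upstream exon first, and capitals mark the bases that differ in the alignment of the pair.
In PKM, the pyruvate kinase of muscle and of most other tissues, the upstream exon belongs to the M1 form and the downstream exon to the M2 form (chr7:61028764-61028930 and chr7:61029321-61029487, plus strand, both coding, 65.5% identical).
PKM upstream exon: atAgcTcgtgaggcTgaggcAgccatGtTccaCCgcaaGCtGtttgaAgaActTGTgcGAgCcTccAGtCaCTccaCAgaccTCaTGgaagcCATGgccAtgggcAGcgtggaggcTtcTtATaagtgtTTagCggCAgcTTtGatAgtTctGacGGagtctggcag
PKM downstream exon: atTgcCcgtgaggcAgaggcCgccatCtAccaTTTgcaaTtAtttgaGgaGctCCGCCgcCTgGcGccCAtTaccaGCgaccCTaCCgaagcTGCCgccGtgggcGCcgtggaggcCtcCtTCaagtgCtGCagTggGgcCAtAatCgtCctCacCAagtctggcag
In SRPK1, a kinase of serine- and arginine-rich splicing factors, the pair is shown because short and long reads both set testis apart (chr7:31650108-31650200 and chr7:31649704-31649796, minus strand, both coding, 59.4% identical).
SRPK1 upstream exon: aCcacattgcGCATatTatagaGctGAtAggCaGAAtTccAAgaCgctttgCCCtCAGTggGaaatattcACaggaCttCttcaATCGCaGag
SRPK1 downstream exon: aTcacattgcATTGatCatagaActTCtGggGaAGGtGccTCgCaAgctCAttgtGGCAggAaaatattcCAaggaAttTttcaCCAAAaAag
In DNM2, the dynamin found in most tissues, the pair is shown because long and short reads differed on it (chr2:69540836-69540974 and chr2:69542138-69542276, plus strand, both coding, 69.8% identical).
DNM2 upstream exon: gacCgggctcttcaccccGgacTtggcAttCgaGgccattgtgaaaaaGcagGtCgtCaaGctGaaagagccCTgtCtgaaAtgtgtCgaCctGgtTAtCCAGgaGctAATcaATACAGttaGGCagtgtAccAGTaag
DNM2 downstream exon: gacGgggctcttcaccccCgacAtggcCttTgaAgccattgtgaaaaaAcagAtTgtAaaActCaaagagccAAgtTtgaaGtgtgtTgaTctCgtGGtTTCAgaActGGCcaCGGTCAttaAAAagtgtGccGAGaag
In MAD1L1, a protein of the spindle checkpoint, both exons had the same sequence and lay 13622 bases apart (chr3:1337414-1337504 and chr3:1323701-1323791, minus strand).
MAD1L1 upstream and downstream exon: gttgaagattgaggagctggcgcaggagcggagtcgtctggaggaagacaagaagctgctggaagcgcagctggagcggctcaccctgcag

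Most of the 407 pairs were unlike in length and sequence. The 2 exons had the same length in 43 events (10.6%), against 137 (3.98%) of the 3444 events in the annotation. The median identity of a pair was 39.6%, with 63.4% in pairs of equal length and 37.2% in pairs of unequal length. Identity reached 60% in 33 events, of which 25 had equal lengths and 8 had not. The median lengths were 97 bases for the upstream and 96 bases for the downstream exon, and the median distance between them was 1613 bases, from 0 to 87880. In 7 events the exons abutted, and in 69 fewer than 100 bases lay between them. Both exons were coding in 301 events (74.0%), 93 events had an exon in a 5′ untranslated region and 5 had one in a 3′ untranslated region. The 2 lengths differed by a multiple of 3 bases, or not at all, in 246 events (60.4%). Both exons had the usual AG acceptor and GT donor in 362 events (88.9%).

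**Figure D1:**
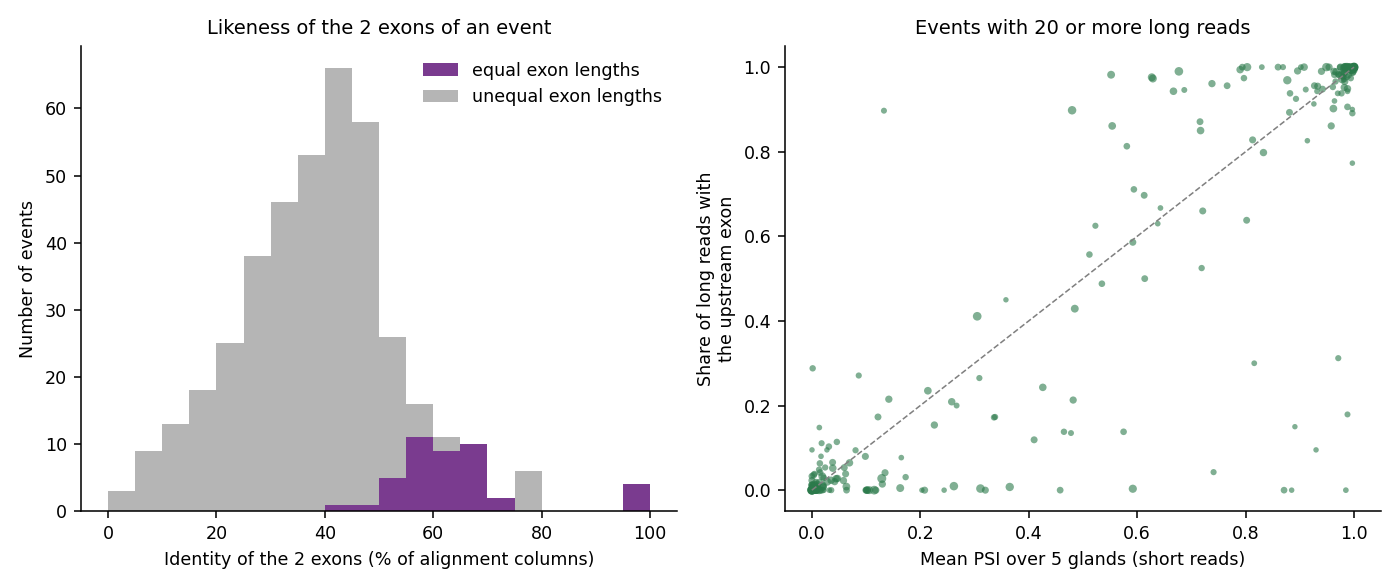
Left, number of events by the identity of the 2 exons (percent of alignment columns), with purple for the 43 pairs of equal length and grey for pairs of unequal length. Right, share of long reads with the upstream exon against mean PSI over the 5 glands for the 271 events with 20 or more long reads, where larger points have more reads and the dashed line marks equality. Most points lie near 0 or near 1 on both axes.

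Exclusive use was not the rule in the annotation. In 210 of the 407 events (51.6%) no transcript held both exons, in 211 none lacked both, and in 123 events neither kind of transcript was present. By abundance, the 2 exclusive forms held a median of 84.9% of the TPM across the site, and over 95% in 175 events. Transcripts with both exons held over 10% of the TPM in 128 events, and transcripts with neither held over 10% in 111 events. In 309 events at least 1 of the forms rested on a single transcript. Both forms were in Ensembl in 182 events, 1 form in 177 and neither in 48, so these 48 pairs rest on the long-read assembly.

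The use of the exons was measured as PSI, the TPM of transcripts with the upstream exon as a share of the TPM of both exclusive forms, so that 1 is the upstream exon alone. Transcripts with both exons or neither are outside PSI. Since the glands are bulk tissue, fewer cells of a type and less RNA per cell cannot be told apart in any value below. Within a breed and gland, the correlation of PSI between libraries across the members was 0.925 to 0.981. Testis libraries correlated with those of other glands at a median of 0.905 to 0.917, and the other glands with each other at 0.947 to 0.961. Some libraries stood apart from their groups in the markers of other cells. In testis, the library labelled DSE testis replicate 2 had a summed TPM of 23500 for 5 spermatid markers against 68000 to 105000 in the other 5 testis libraries, and 63300 for 4 Leydig cell markers against 18500 to 32300. Testis differences of events in which it stood apart are given with and without it. Outside testis the Leydig sum was at most 3.93 TPM, and the spermatid sum was at most 220 TPM except for 938 TPM in epididymis BMI replicate 2. Epididymis BMI replicate 1 had the highest sums of skeletal muscle (625 TPM), fibroblast (8590) and endothelial markers (341) of its gland, and 2 bulbourethral libraries had skeletal muscle markers, as given with TPM2. Calls for epididymis were 16 without either of these BMI libraries, the same count as with all libraries. The deposited TPM values carry no depth, and 55309 to 76938 transcripts were above 0 in a library.

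Most events kept to 1 exon in every gland. All 5 gland means lay below 0.1 or all above 0.9 in 244 of the 407 events, and the median range of gland means was 0.0439. A range of 0.1 or more was seen in 138 events and one of 0.5 or more in 13. The share of events using both forms, with a PSI from 0.1 to 0.9, was 26.7% ± 1.62 (SD, n = 6 libraries) for testis and 27.8% ± 1.38 for epididymis, and 26.4% ± 1.36, 27.9% ± 1.03 and 27.4% ± 1.3 for vesicular, prostate and bulbourethral gland. No gland passed the test against the other 4 (exact permutation test over libraries, two-sided, adjusted p = 0.401 in 4 glands and 0.813 in bulbourethral gland). The testis result depends on the range taken as use of both forms. Testis was 0.655 percentage points below the other glands here, 1.52 below with a range of 0.2 to 0.8 (adjusted p = 0.0464) and 1.58 above with a range of 0.05 to 0.95 (adjusted p = 0.195). Over events of all 7 types this share was 24.6% to 25%.

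PSI differed between glands in 71 of the 407 events (17.4%), in 66 genes, by the limma F test adjusted over all 37088 events with a range of gland means of at least 0.1. The same rule called 14.7% of the events of all 7 types, so the share of the members was close to the background. By type it called 14.1% of skipped exons, 13.0% of alternative 5′ splice sites, 10.5% of alternative 3′ splice sites, 11.6% of retained introns, 26.3% of alternative first exons and 20.7% of alternative last exons. Against the mean of the other 4 glands, PSI was higher in 31 events in testis (background 5.4%) and lower in 31 (6.88%), together 62 (15.2%, background 12.3%), with a median absolute difference of 0.232. Epididymis had 5 higher and 11 lower, 3.93% of the members (background 2.44%, with 1.21% higher and 1.23% lower). Vesicular gland had 9 and 7, also 3.93% (background 2.91%, with 1.63% and 1.29%). Prostate gland had 8 and 11, or 4.67% (background 1.8%, with 0.987% and 0.809%), and bulbourethral gland 11 and 7, or 4.42% (background 2.17%, with 1.09% and 1.07%). The largest gland difference of the 71 events was that of testis in 49 cases, epididymis in 7, vesicular gland in 6, prostate gland in 2 and bulbourethral gland in 7. This split was not made over events of all 7 types, in which testis also had the most calls (12.3% against 1.8% to 2.91%). The 6 libraries of a gland lay entirely apart from the other 24 in 18 of the 62 events called in testis, in 1 event of epididymis, and in none of the events called in the 3 accessory glands. Such separation was not counted over events of all 7 types, so nothing is read from these counts. Without DSE testis replicate 2, 57 events were called in testis, 56 of them among the 62, and 68 in any gland, 66 of them among the 71.

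**Figure D2:**
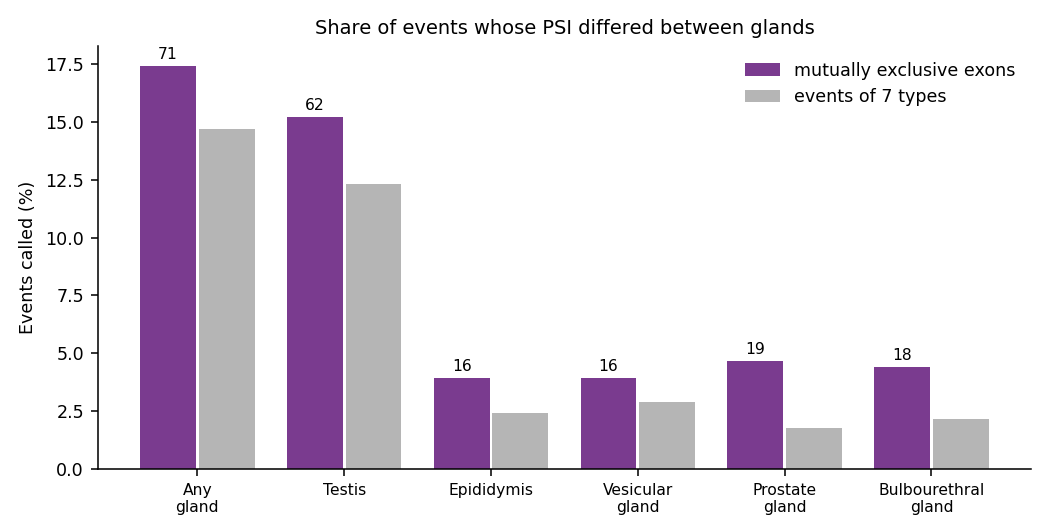
Percent of events whose PSI differed between glands (limma, adjusted p under 0.05 and a difference of 0.1 or more), for the 407 mutually exclusive exon events (purple) and all 37088 events of 7 types (grey). Bars for any gland and testis are the tallest for both sets, at 17.4 and 15.2% for the mutually exclusive events and 14.7 and 12.3% for all.

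Pairs of equal length were called more often than pairs of unequal length. A gland difference was called in 17 of 43 events of equal length (39.5%) and in 54 of 364 of unequal length (14.8%), against 14.7% of all events, and the median ranges were 0.149 and 0.0406. The pairs of equal length were also more abundant, with a median summed TPM of 17.0 against 10.5. Among pairs with an identity of 60% or more, 11 of 33 (33.3%) were called, and among the rest 59 of 371 (15.9%). Events without any transcript holding both exons were called in 30 of 210 cases (14.3%), and the others in 41 of 197 (20.8%). These shares describe the 407 events and the differences between them were not tested. The exon with more TPM changed between glands in 36 events, 29 of them called. In 18 events the major exon of testis differed from that of each of the other 4 glands, and 17 of these were called in testis. Changes of the major form were not counted over events of all types, so nothing is read from these counts.

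The classical genes of mutually exclusive splicing were followed through a list of 43 genes, of which 39 had an event in the annotation and 22 had one among the members, taken as the event with the widest range per gene. A gland difference was called in 7 of the 22 (31.8%, background 14.7%), namely FGFR2, PKM, ACTN1, MAPK14, DNM2, MEF2A and TCF3. Since the event with the widest range was taken for each gene, this share is not comparable with the background and nothing is read from it. Single glands stood out in 6 events for testis (background 12.3%), 2 for epididymis (2.44%), 2 for vesicular gland (2.91%), 2 for prostate gland (1.8%) and 4 for bulbourethral gland (2.17%), with TPM2 called only there. The same choice of event makes these counts not comparable with the backgrounds.

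FGFR2 was the classical event with the widest gland range. FGFR2 is a receptor of fibroblast growth factors, and its upstream exon, known as IIIb, and downstream exon, known as IIIc, code for alternative ends of the third immunoglobulin domain. PSI of the IIIb exon in the 6 testis libraries was 0.290, 0.175 and 0.189 in BMI and 0, 0.161 and 0 in DSE. The epididymis values lay between 0.314 and 0.703 with a median of 0.433, and those of the vesicular gland between 0.639 and 0.863 with a median of 0.849. Prostate gland ran from 0.772 to 0.962 (median 0.817) and bulbourethral gland from 0.840 to 0.884 (median 0.859). Thus IIIc was the major exon in all 6 testis libraries and IIIb in all 18 accessory gland libraries, with epididymis between them and no overlap of testis with any other gland. The testis mean was lower than the mean of the other glands (difference −0.606, SE 0.0389, limma adjusted p = 2.91e-12). Epididymis was lower too (−0.206, adjusted p = 0.00165), and vesicular, prostate and bulbourethral gland were higher by 0.240, 0.270 and 0.302. The 3 accessory glands overlapped each other. The testis values rest on a summed TPM of 1.42 to 4.69 for the 2 forms, against 16.8 to 46.5 TPM in bulbourethral gland, and only 5 long reads covered the pair. Beside this, the sum of 5 epithelial markers was 14.3 to 41.5 TPM in testis against 727 to 2790 TPM in the other glands, and its part in the result was not tested.

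ESRP1, an epithelial splicing factor known to favour the IIIb exon, was listed at a median of 0.0102 TPM in testis, against 25.7 TPM in epididymis and, for the accessory glands, 19.7 (vesicular), 33.7 (prostate) and 58.7 TPM (bulbourethral). On the log2(TPM + 1) scale its testis difference was −4.99 (SE 0.214, limma adjusted p = 9.32e-19) and its bulbourethral difference 2.29. The part of ESRP1 in the FGFR2 values was not tested. Of 36 splicing regulators in the list, 33 were tested. In testis 11 were higher and 3 lower by at least 1 log2 unit, against 34.6% and 12.8% of all 19796 genes (47.4% in all), and the median difference of the list was 0.08 against 0.31 for all genes. The 3 lower factors were ESRP1, ESRP2 (−1.93) and MBNL2 (−1.05), and the higher ones included CELF6 (3.63), MBNL3 (3.55), CELF3 (2.73), QKI (2.58), RBM20 (2.14) and PTBP2 (1.79), the neural member of the PTB family. Calls in the other glands were 4 for epididymis (background 21.6%), 5 for vesicular gland (33.0%), 4 for prostate gland (16.5%) and 3 for bulbourethral gland (20.4%). These counts depend on the pseudocount. With 0.1 TPM in place of 1 TPM, testis had 14 (background 58.7%), epididymis 8 (32.7%), and the accessory glands 15 (vesicular, 52.5%), 12 (prostate, 29.7%) and 10 (bulbourethral, 34.0%). PTBP1, which is known to repress the M1 exon of PKM, was 67.1 TPM in testis as a median and its log2 difference of −0.72 was below the size asked of a call. Its part in the PKM values was not tested.

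PKM used the M1 exon more in testis. PSI was 0.314, 0.299 and 0.303 in BMI testis and 0.389, 0.160 and 0.388 in DSE testis, the value of 0.160 being that of replicate 2. The medians of the other glands were 0.079 (epididymis), 0.0414 (vesicular), 0.0891 (prostate) and 0.0654 (bulbourethral), with the highest single values at 0.207 in epididymis and 0.246 in bulbourethral gland. M2 remained the major form in each of the 30 libraries. The testis difference was 0.225 (SE 0.0305, adjusted p = 1.87e-06), or 0.263 without DSE testis replicate 2, after which the testis libraries (0.299 to 0.389) no longer overlapped the others. Long reads of the M1 form were 92 of 333 in testis, 27.6% (95% Wilson interval 23.1 to 32.7), which pools unlike libraries with 21 M1 and 115 M2 reads in BMI and 71 and 126 in DSE, against 0 of 694 in prostate gland, which allows up to 0.432%, and 0.232%, 0.258% and 0.580% in epididymis, vesicular gland and bulbourethral gland. Vesicular gland was lower in PSI (difference −0.105, adjusted p = 0.0358), a call lost in 10 of the 30 fits that each left out 1 library, in which the difference was −0.0964 to −0.109.

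ACTN1, which cross-links actin, has an 81-base and a 66-base exon in its calcium-binding part. Its PSI was 0.0154 to 0.0645 (median 0.0332) in epididymis and 0.514 to 0.768 (median 0.596) in bulbourethral gland. Epididymis lay apart from all other libraries, of which the lowest was 0.116 in vesicular gland. The differences were −0.336 in epididymis (SE 0.0518, adjusted p = 0.000183) and 0.397 in bulbourethral gland (adjusted p = 1.78e-05). Long reads gave 10.3% (46 of 445) in epididymis and 73.6% (304 of 413) in bulbourethral gland, and 51.3%, 42.2% and 39.3% in testis, vesicular gland and prostate gland. Transcripts with both exons held 54.7% of the TPM at this site, so PSI describes the other 45.3%. The sum of 5 smooth muscle markers had medians of 6510 TPM for epididymis, 2180 for vesicular, 1860 for prostate and 203 for bulbourethral gland, and 157 for testis, and its part in the result was not tested.

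The tropomyosins, which run along actin filaments, gave uneven results. TPM1 ranged from 0.110 to 0.873 within epididymis, the lowest values being 0.110 in DSE replicate 2 and 0.219 in BMI replicate 1, the 2 epididymis libraries with the most smooth muscle marker RNA (20800 and 13700 TPM). They also had the most fibroblast (3580 and 8590 TPM), endothelial (150 and 341) and skeletal muscle marker RNA (99.3 and 625) of that gland, and the part of these cells in the TPM1 values was not tested. In no gland did TPM1 pass the test (testis difference 0.191, adjusted p = 0.0505), though testis passed in 9 of the 30 fits that each left out 1 library, with an adjusted p of 0.0170 without epididymis BMI replicate 2, and with all libraries at a minimum of 5 TPM (adjusted p = 0.0466) or with 0.1 TPM added to each form (adjusted p = 0.0414). Long reads of TPM1 held the upstream exon at 90.6% to 95.9% in 4 glands, where PSI had means of 0.343 to 0.633, and at 55.2% in bulbourethral gland. TPM2 was 0.874 to 1 in all libraries but a pair, at 0.359 in bulbourethral gland BMI replicate 1 and 0.219 in DSE replicate 3 of the same gland. They had 410 and 1430 TPM of 5 skeletal muscle markers, against 0 to 22.9 TPM in the other bulbourethral libraries, while epididymis BMI replicate 1, the library with the highest such sum outside bulbourethral gland, had a PSI of 0.952. The part of skeletal muscle RNA in the result was not tested. The bulbourethral difference of TPM2 (−0.251, adjusted p = 0.0479) was lost in 25 of 30 fits that each left out 1 library. In 23 of these it was still −0.254 to −0.248, with an adjusted p of 0.0535 to 0.0614, and it shrank to −0.145 without bulbourethral gland BMI replicate 1 and to −0.134 without DSE replicate 3 of that gland. TPM3 stayed at 0.922 to 1 in all libraries.

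**Figure D3:**
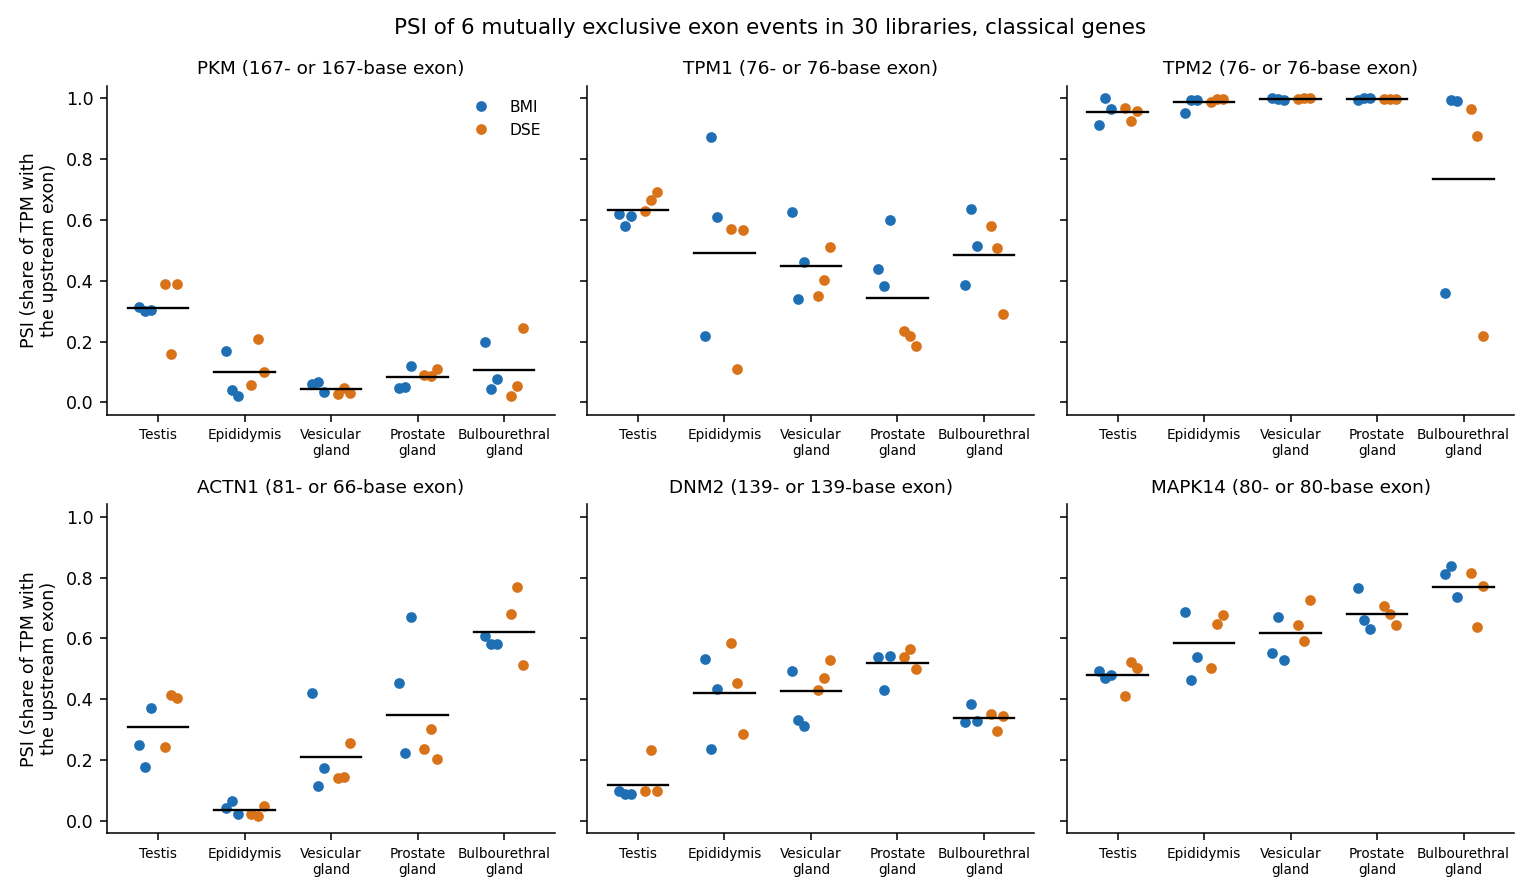
PSI (share of TPM with the upstream exon) of 6 classical pairs in each of the 30 libraries, blue for BMI and orange for DSE, with a line at each gland mean. PKM is highest in testis at a mean of 0.309, TPM2 falls in 2 bulbourethral libraries to 0.359 and 0.219, and ACTN1 is lowest in epididymis.

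**Figure D4:**
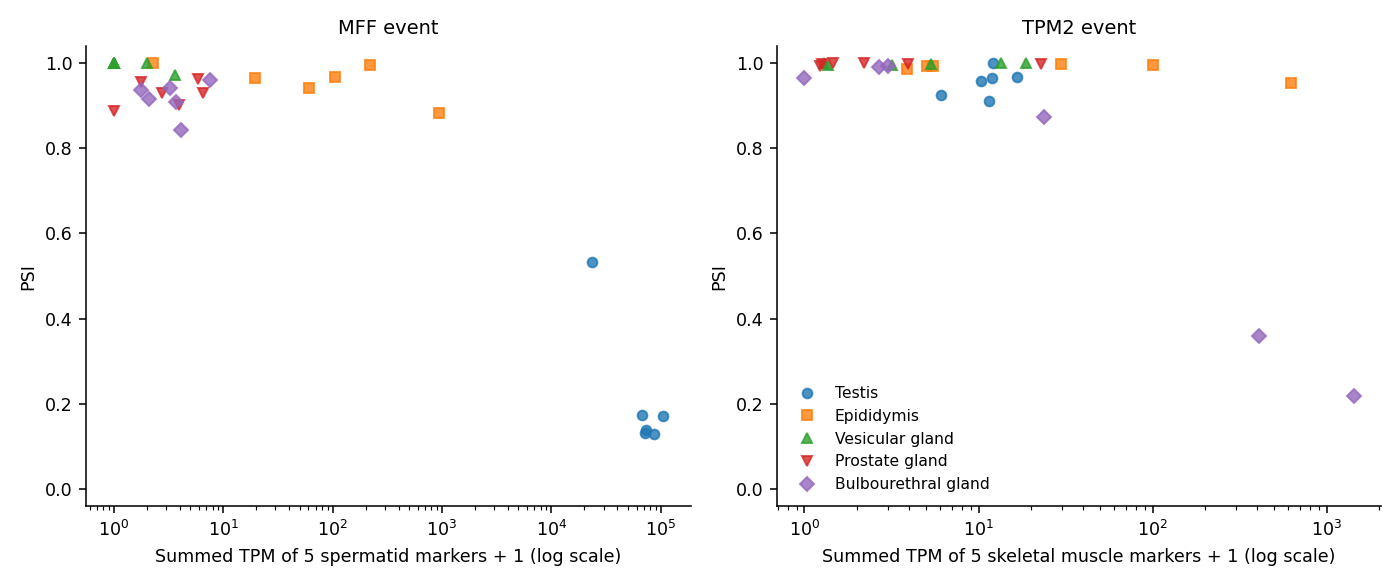
PSI of the MFF pair against summed spermatid markers (left) and of the TPM2 pair against summed skeletal muscle markers (right), each as TPM + 1 on a log axis, with 1 point per library and a symbol per gland. The testis library with the fewest spermatid transcripts has the highest MFF value of testis, 0.533, and the 2 low TPM2 points are the bulbourethral libraries with 410 and 1430 TPM.

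The kinases and transcription factors of the list had narrower ranges than FGFR2 and ACTN1. MAPK14, the p38 alpha kinase, was 0.410 to 0.521 in testis and 0.638 to 0.838 in bulbourethral gland, with differences of −0.184 (adjusted p = 6.13e-05) and 0.177 (adjusted p = 0.00102), and both overlapped epididymis. Long reads held its upstream exon at 92.9% in testis and 97.0% to 100% elsewhere, far above these PSI values. MEF2A, a transcription factor of muscle and neurons, was higher in testis (0.653 to 0.817, difference 0.235, adjusted p = 0.00243), and its long reads gave 94.9% in testis and 61.3% to 89.2% in the others. TCF3, whose pair separates the E12 and E47 proteins, was 0.495 to 0.710 in testis and 0.326 to 0.641 in the other glands (difference 0.165, adjusted p = 0.000197, or 0.196 without DSE testis replicate 2). MAPK8, the stress kinase JNK1, had means of 0.0328 to 0.206 and did not pass the test in any gland. Each gland mean was below 0.1 for FGFR1, MAPK9, SLC25A3 and CTNND1 and above 0.9 for TPM3, MEF2D and CAMK2D, and MEF2C ranged from 0.888 to 0.965. Small differences passed the test in FGFR1 and ACTN4. FGFR1 was 0.0171 to 0.0502 in bulbourethral gland and 0 to 0.0159 elsewhere (difference 0.0213, adjusted p = 0.000178). In ACTN4 the 86-base upstream exon was at 0.866 to 0.982 in testis and 0.983 to 1 elsewhere (difference −0.0794, adjusted p = 5.66e-09). Both differences were below the 0.1 asked of a call. CALU, SLC39A14 and NSRP1 did not pass the test in any gland, though NSRP1 passed in vesicular gland with 0.1 TPM added to each form (0.129, adjusted p = 0.0347) and on the logit scale (adjusted p = 0.0285).

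DNM2 differed between the kinds of reads. PSI was 0.0883 to 0.0994 in 5 testis libraries and 0.233 in DSE replicate 2, against 0.238 to 0.584 in the other glands, so testis did not overlap them (difference −0.309, SE 0.0357, adjusted p = 1.48e-07, and −0.332 without DSE replicate 2). Prostate gland had the highest mean, with libraries at 0.430 to 0.566 (difference 0.193, limma adjusted p = 0.00173). Long reads of the upstream exon were rare in each gland, 3 of 746 in testis and 0 to 2.06% elsewhere, where PSI had means of 0.339 to 0.519.

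Outside the classical list, the largest testis differences whose libraries did not overlap were in MFF, SRPK1, CADM1, MRPL9 and RELCH. MFF, the receptor that brings the fission machinery to mitochondria, has a 159-base and a 33-base exon here. Its PSI was 0.175, 0.129 and 0.133 in BMI testis and 0.171, 0.533 and 0.140 in DSE testis, and at least 0.844 in the other 24 libraries. Testis thus used the short downstream exon, with DSE replicate 2 between the groups. The difference was −0.736 (SE 0.0345, adjusted p = 4.76e-15), and −0.799 without that library. Long reads gave 36.6% (26 of 71, interval 26.4 to 48.2) in testis and 28 of 29, 6 of 7, 8 of 8 and 15 of 15 reads in epididymis, vesicular, prostate and bulbourethral gland. The 2 exclusive forms held 24.2% of the TPM at the site, and transcripts with neither exon held 72.2%.

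SRPK1 and its paralogue SRPK2 share an arrangement, a pair of exons of 93 bases each, and both shifted to the upstream exon in testis. SRPK2 was named after its values were seen. In SRPK1 the upstream exon was at 0 in 23 of the 24 other libraries and at 0.0160 in vesicular gland DSE replicate 2. In testis it was 0.654, 0.678 and 0.670 in BMI and 0.895, 0.563 and 0.796 in DSE. The difference was 0.709 (SE 0.0237, adjusted p = 4.11e-18), or 0.756 without DSE testis replicate 2. Long reads showed the upstream exon in 48 of 80 reads in testis (60%), in 0 of 36, 0 of 44 and 0 of 43 in epididymis, vesicular gland and prostate gland, and in 1 of 25 in bulbourethral gland. SRPK2 had 0.931 to 0.981 in testis and 0.462 to 0.845 elsewhere (difference 0.306, SE 0.0278, adjusted p = 2.13e-09). Long reads gave a wider contrast for SRPK2, 94 of 100 in testis against 3 of 47 in the other glands together. Outside testis the kinds of reads thus differed, with long reads mostly of the downstream exon and PSI at 0.462 to 0.845.

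CADM1, a cell adhesion protein that joins germ cells to Sertoli cells, used an 89-base exon in all other glands (0.986 to 1) and a 12-base exon 18216 bases downstream in testis, where PSI was 0.156 to 0.328 in 5 libraries and 0.610 in DSE replicate 2. The difference was −0.699 (adjusted p = 3.34e-15), and −0.755 without that library. All 11 long reads of the pair in testis held the 89-base exon, so the 12-base form rests on short reads. MRPL9, a protein of the mitochondrial ribosome, was at 0 in 4 testis libraries and at 0.651 and 0.476 in DSE replicates 1 and 2, against 0.746 to 0.995 elsewhere (difference −0.691, adjusted p = 6.53e-10, or −0.716 without replicate 2). The 2 exclusive forms held 33.3% of the TPM at this site and transcripts with both exons 66.7%. RELCH, a protein of endosomes, was at 0.844 to 1 in testis against 0.0761 to 0.636 elsewhere (difference 0.637, adjusted p = 1.25e-10), but in long reads testis had 38.2% (21 of 55) and epididymis 40.0% (26 of 65). These upstream reads were all from BMI, whose libraries also held 21 and 37 downstream reads, and the DSE libraries had 0 upstream and 13 and 2 downstream reads.

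**Figure D5:**
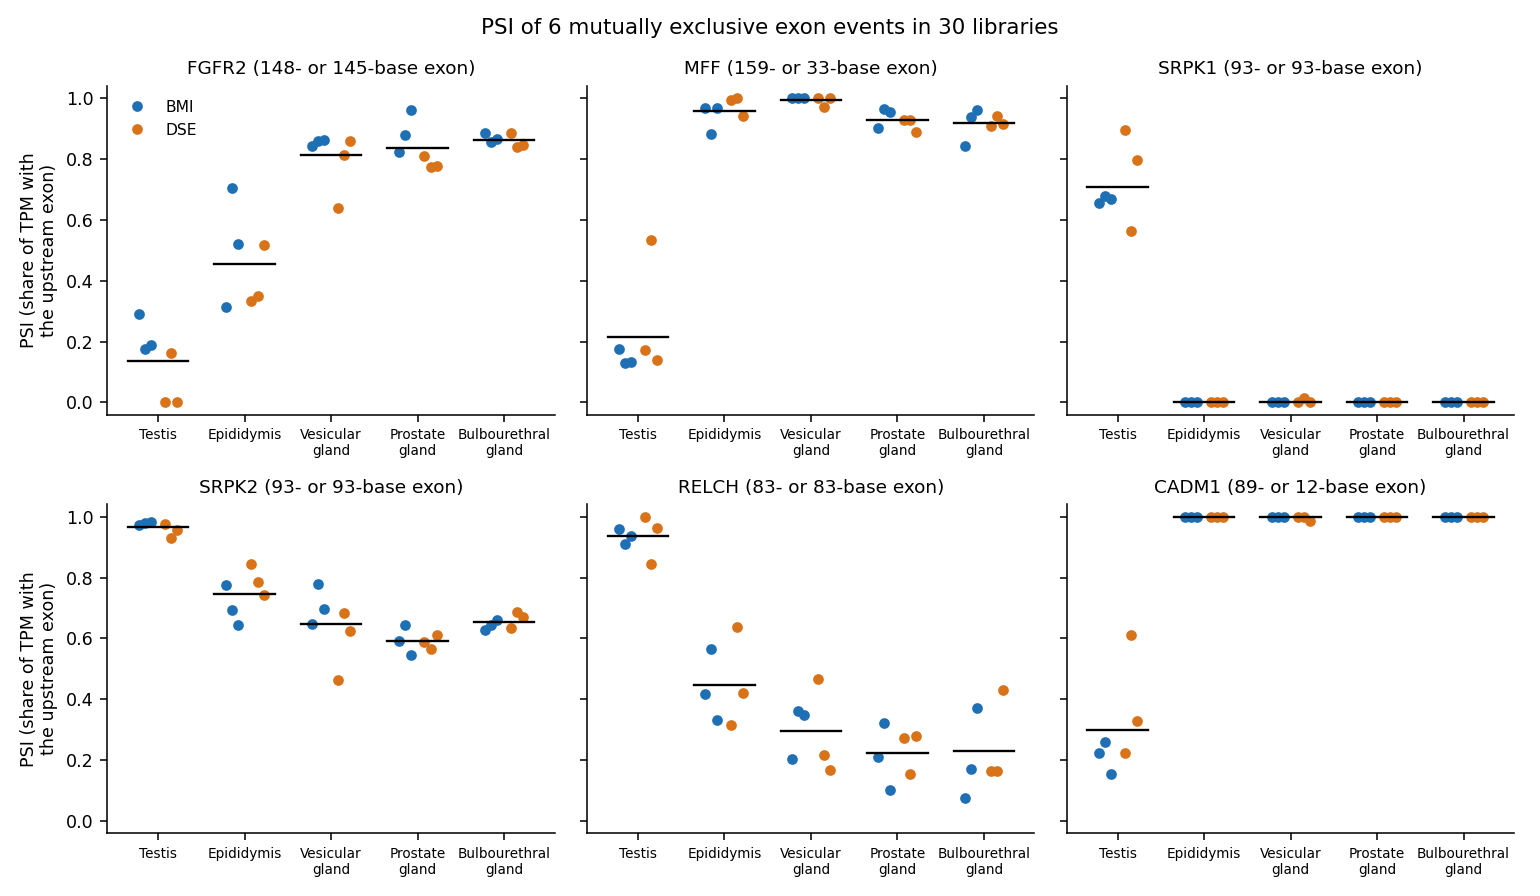
PSI of 6 pairs in each of the 30 libraries, blue for BMI and orange for DSE, with a line at each gland mean. In the MFF and CADM1 panels 5 testis libraries lie below 0.35 and DSE replicate 2 lies above 0.5, and the SRPK1 upstream exon is near 0 outside testis.

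The next 6 events, in OGDH, FAR1, ISOC2, ATE1, KHK and U2AF1, were chosen after their values were seen. OGDH, a subunit of the 2-oxoglutarate dehydrogenase of the citric acid cycle, had low values in testis and epididymis and its highest in bulbourethral gland. Its PSI was 0.0141 to 0.105 in testis and 0.0269 to 0.114 in epididymis. The accessory glands had 0.102 to 0.219 (vesicular), 0.220 to 0.386 (prostate) and 0.314 to 0.589 (bulbourethral). Neighbours in this order overlapped except vesicular and prostate gland, and bulbourethral gland had the largest difference (0.303, SE 0.0272, adjusted p = 4.06e-08). Long reads ran from 7.69% in epididymis and 17.9% in testis to 42.9% (27 of 63) in bulbourethral gland. FAR1, which makes fatty alcohols for ether lipids, was highest in epididymis (0.372 to 0.742, difference 0.274, adjusted p = 2.76e-05) and lowest in testis (0.0389 to 0.144, difference −0.303, or −0.319 without DSE replicate 2), while its long reads gave 0.127% to 2.13% in every gland. ISOC2 was low in prostate and bulbourethral gland (0.0648 to 0.331) and 0.167 to 1 in the other glands, on 8.4% of the TPM at its site, since 91.6% had both exons. ATE1, the arginyl transferase, was higher in testis (0.639 to 0.932, difference 0.220, adjusted p = 0.000365, or 0.263 without DSE replicate 2) and lower in prostate gland (−0.177, adjusted p = 0.0216, lost without BMI replicate 3, DSE replicate 2 or DSE replicate 3), whereas its long reads gave 87.8% in testis and 92.5% to 97.1% in the others. KHK, the ketohexokinase with A and C forms, was lower in testis (0.629 to 0.826, difference −0.12, adjusted p = 0.0104, or −0.0986 without BMI replicate 1) and in epididymis (0.50 to 0.893, difference −0.130, adjusted p = 0.0278). The epididymis call of KHK was lost without BMI replicate 1, BMI replicate 3 or DSE replicate 3 (differences −0.127, −0.0872 and −0.101), and the few long reads, 3 to 9 in a gland, were all of the upstream form. U2AF1, a subunit of the factor that binds 3′ splice sites, had both its 67-base exons in use by PSI, at 0.328 to 0.562 in all libraries with no gland called. Its upstream exon was in 0 of 106 long reads over the 5 glands, with 0 of 39 in testis, which allows up to 7.69%.

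The most alike pairs included 4 whose exons were the same base for base, in RMND1, ABCG2A, OSBPL10 and MAD1L1, at distances of 13110 to 48539 bases. Neither short nor long reads inside such exons can tell the 2 apart by sequence. Their PSI and long-read shares thus rest on the rest of the transcripts and on where reads were placed. PSI was 0 in all libraries for ABCG2A, 0 to 0.216 for RMND1 and 0.890 to 1 for OSBPL10. MAD1L1 was 0.733 to 0.944 in testis and 0.591 to 0.814 in epididymis, with differences of 0.114 and −0.114 (limma adjusted p = 0.00604 and 0.0281). The first was 0.140 without DSE testis replicate 2 and 0.0964 without replicate 1. The second was lost without DSE epididymis replicate 1 (−0.102) or 2 (−0.108) and on the logit scale. All 50 long reads of testis and 48 of the other glands were assigned to the upstream form. RAB6A, a GTPase of the Golgi whose 106-base exons are 72.6% identical, was 0.698 to 0.80 in testis and 0.438 to 0.724 elsewhere (difference 0.153, adjusted p = 0.000299), whereas its long reads held the upstream exon at 94.7% to 98.8% in all glands.

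The 5 most abundant members were RPS24, ENO1, EPCAM, ITM2B and SLC25A3. RPS24, a protein of the small ribosomal subunit whose pair is of 3 and 18 bases, had a median of 1645 TPM over the libraries and a PSI of 0.997 to 0.999 in testis and 0.852 to 0.986 in epididymis (epididymis difference −0.0546, adjusted p = 0.00858, below the size asked of a call). ENO1, the enolase of glycolysis, was lower in testis (0.0292 to 0.0752 in 5 libraries and 0.165 in DSE replicate 2) than in most other libraries (0.128 to 0.372), with a difference of −0.176 (adjusted p = 2.50e-06), or −0.191 without DSE replicate 2. The upstream exon was in 0 of its 153 long reads in testis, which allows up to 1.96%. EPCAM and SLC25A3 had a PSI of at most 0.0130 and 0.0283, and ITM2B of at least 0.998, in all libraries.

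The breeds differed in few members. Over all glands, 4 events were called (0.983% against a background of 0.55%), 2 higher in DSE (background 0.248%) and 2 lower (0.302%). SPOP, an adaptor of a ubiquitin ligase whose pair lies in the 5′ untranslated region, was higher in DSE by 0.179 (SE 0.0285, adjusted p = 0.000667). In testis it was 0.0733, 0.0505 and 0 in BMI and 0.368, 0.325 and 0.244 in DSE, and the breeds did not overlap in testis, epididymis, vesicular gland or bulbourethral gland. Its exclusive forms held 29.4% of the TPM at the site, with 66.9% in transcripts with neither exon. MTRR, which reactivates methionine synthase, was higher by 0.194 (adjusted p = 0.0119), with all 15 DSE libraries at 0.962 to 1 and BMI libraries at 0.536 to 1. TMEM141 was lower (difference −0.250, adjusted p = 0.00185), from 0.339 to 0.727 in BMI and 0 to 0.677 in DSE, and replicate 3 was the lowest DSE library in each gland. ADGRE5 was lower (difference −0.214, adjusted p = 0.0372, lost in 20 of 30 fits without 1 library), and its breeds overlapped in epididymis and bulbourethral gland. MTRR, TMEM141 and ADGRE5 were named after their values were seen.

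Within testis, 6 events were called between breeds (1.47% against 0.946%), 4 higher in DSE (background 0.472%) and 2 lower (0.475%), in LYPLA1, RNF14, CALU, SPOP, MRPL9 and ENSSSCG00000008576. LYPLA1, a thioesterase, was 0.562, 0.735 and 0.793 in BMI and 0.879, 0.907 and 0.914 in DSE (adjusted p = 0.0451), on 9.65% of the TPM at its site, since transcripts with both exons held 90.4%. RNF14 was 0.139, 0.344 and 0.280 in BMI and 0.0233, 0 and 0.109 in DSE (difference −0.210, adjusted p = 0.0127), on 19.2% of the TPM at its site, with 80.4% in transcripts with both exons. CALU, a calcium-binding protein of the secretory pathway, was 0.679 to 0.722 in BMI and 0.548 to 0.599 in DSE (difference −0.130, adjusted p = 0.0234). Its long reads gave no such values, with the upstream exon in 145 of 146 reads in BMI testis and 153 of 153 in DSE testis, and in 98.3% to 99.7% of reads over the 5 glands. Without DSE testis replicate 2 only 1 of the 6 was still called, ENSSSCG00000008576, with 0.425 to 0.513 in BMI and 0.561, 0.816 and 0.862 in DSE (difference 0.275, or 0.240 without it). All 7 testis long reads of this pair held the upstream exon, and the exclusive forms held 58.3% of the TPM. The other 5 differences were nearly as large without it, 0.265 for SPOP, 0.20 for LYPLA1, −0.188 for RNF14, −0.115 for CALU and 0.325 for MRPL9, with adjusted p of 0.0612 to 0.124. The LYPLA1 call was lost in 22 of the 30 fits that each left out 1 library, with a difference of 0.136 without BMI testis replicate 1, and with the replicate block (adjusted p = 0.064). The difference of MRPL9 was 0.238 without DSE testis replicate 1 and 0.563 without DSE testis replicate 3. The calls of CALU, SPOP, RNF14 and MRPL9 were lost in 3 to 5 of these fits, each time without a testis library. SRPK1 was then called as well, higher in DSE by 0.178. In epididymis 1 event was called (0.246% against 0.129%), FGGY, a carbohydrate kinase, at 0.769 to 0.856 in BMI and 0.988 to 1 in DSE (difference 0.175, adjusted p = 0.00575). On the logit of PSI 0 events were called in epididymis and 1 in testis, MRPL9, with ENSSSCG00000008576 at an adjusted p of 0.773. The limma fit called 0 events each for vesicular, prostate and bulbourethral gland (backgrounds 0.218%, 0.124% and 0.108%), and the logit fit called 0 in each as well. An unadjusted limma p under 0.05 was seen there in 29, 27 and 18 of the 407 events. Over events of all 7 types it was seen in 3178, 2556 and 1823 of 37088. The breed difference itself differed between glands in 1 event (0.246% against 0.493%), PTP4A1, a phosphatase, at 0.904, 0.884 and 0.878 in BMI testis, 0.924, 0.973 and 0.949 in DSE testis and 0.986 to 1 in the other glands (adjusted p = 0.0129, and 0.93 on the logit scale). No size was asked of this test, and the DSE minus BMI difference was 0.0597 in testis, below the 0.1 asked elsewhere.

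Long reads gave a separate readout of the same pairs. Over the 407 events there were 113139 reads, with a median of 68 per event, 217 events with both forms seen and 26 with no read. Across the 271 events with 20 or more reads, the share of reads with the upstream exon and the mean PSI had a Pearson r of 0.908 and a Spearman rho of 0.856, as a description across events that share the annotation. The median absolute difference was 0.0214, and 256 events had the same major form by both. Of 26 events called in testis with 20 or more reads on each side, 20 differed in the same direction, but in 9 of these the long-read difference was under 0.1. In DNM2 it was −0.0094 against −0.309 in PSI, in FAR1 −0.00433 against −0.303, and in RAB6A 0.01 against 0.153. The direction was opposite in 5 events and the long-read difference was 0 in MAD1L1. Among events chosen after their values were seen, MTMR14 with its 180- and 2300-base exons had differences of 0.269 in long reads and 0.344 in PSI, but its event of 180 and 156 bases had 0.0812 and 0.225. The 33-base event of CADM1 had −0.560 and −0.595, MYO9B −0.261 and −0.287, and DNM1L, the GTPase that MFF recruits, −0.136 and −0.229. Intervals and limits of 0 reads cover counting error only, since reads were counted after amplification.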

How the data were processed

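Libraries were grouped by the breed and gland in their labels. The TPM values were deposited by the authors as 1 table of transcripts by 30 RNA-seq libraries, made with Salmon 1.9.0 on the merged Ensembl and Iso-seq annotation of Sscrofa11.1. Full-length read counts per isoform and Iso-seq library were deposited by the authors after clustering and collapsing. The submitters' processing notes also name STAR 2.7.10a, GSNAP and Bowtie 1.3.1. Small RNA values were not used here.

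Events of 7 types were rebuilt from exon coordinates in Python 3.11.15 (SUPPA2 itself was not run). PSI was the summed TPM of the form with the upstream exon over that of both forms, kept where both forms summed to 1 TPM or more in all 30 libraries. PSI was fitted with limma 3.58.1 in R 4.3.3, with moderated variances and Benjamini-Hochberg adjustment over all 37088 events. Gland comparisons and the breed comparison over all glands used 1 mean per gland and a shared breed term. Breed comparisons within a gland used 1 mean per breed and gland, and the breed by gland test used interaction terms. A gland was set against the mean of the other 4, and a call needed an adjusted p under 0.05 and a difference of 0.1. The breed by gland test asked no size. Gene values were tested as log2(TPM + 1) for genes with 1 TPM in 3 libraries, with a difference of 1 for a call, which understates the change of low genes. A share of long reads has a 95% Wilson interval, and a limit on 0 reads is 3 reads of the total. Exon pairs were aligned globally with Biopython 1.88 (match 2, mismatch −1, gap opening −4, extension −1). Salmon estimates transcripts from short reads, so PSI of 1 pair also rests on reads elsewhere in the transcripts. The scripts were tested on simulated data.

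Named events were those of a list of classical genes, the largest called differences whose libraries did not overlap in each gland and breed comparison, the 6 most alike pairs of equal length and the 5 most abundant events, each from a different gene. A further 12 were named after their values were seen. Some items withheld for evaluation are not reported here. The members and lists were chosen with earlier results of these data known. The alternatives were another TPM minimum, the logit of PSI, 0.1 TPM added to each form, a PSI difference of 0.2, mutually exclusive events fitted alone, events without transcripts holding both exons, a replicate block, and leaving out libraries.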

Additional observations from a re-analysis of the deposited data

Results flagged for a closer look

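Within groups of 6 libraries, 123 groups were tested, those of named events with a call and a PSI range of 0.1 or more and 5 of the share of events using both forms, and in 14 of them 1 library stood apart from the others by Dixon's test, which flags about 1 group in 20 by chance. DSE testis replicate 2 accounted for 6 of the 14, with PSI of 0.233 in DNM2, 0.533 in MFF, 0.733 in MAD1L1, 0.165 in ENO1, 0.144 in FAR1 and 0.639 in ATE1. Each of these values lay on the side of the other glands. The same library had the low spermatid and high Leydig marker sums given above, and their part in these values was not tested.

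The other 8 were spread over libraries. They were FGFR2 in vesicular gland DSE replicate 1 at 0.639, MEF2A in epididymis BMI replicate 3 at 0.146 and in prostate gland DSE replicate 3 at 0.342, and FGGY in bulbourethral gland BMI replicate 1 at 0.886. RAB6A stood apart in epididymis DSE replicate 1 at 0.486, the library with the lowest TIN, a measure of RNA integrity, whose part in the value was not tested, and ISOC2 in epididymis BMI replicate 1 at 0.167. MTRR stood apart in testis BMI replicate 2 at 0.675 and in bulbourethral gland BMI replicate 1 at 0.615. The breed difference of PTP4A1 differed between glands by the limma interaction test (adjusted p = 0.0129), with a DSE minus BMI difference of 0.0597 in testis.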

How the results depend on the processing

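For the 52 named events the alternatives were run on the largest gland difference of each and on every other gland or breed difference that was called. Of 3888 alternative fits, 3631 kept the direction and the side of the threshold, 242 lost a call (48 differences in 28 events, 179 of the fits without 1 library, 37 at a PSI difference of 0.2 and 15 on the logit scale), 13 gained one (in 2 events) and 2 changed sign, namely MEF2D in bulbourethral gland (−0.00948 to 0.0021 with 1 library left out, the latter without DSE replicate 3) and RMND1 in prostate gland (0.0497 to −0.0013, the latter without BMI replicate 3). In the order any gland, testis, epididymis, vesicular, prostate and bulbourethral gland, calls numbered 19, 12, 3, 4, 3 and 3 at a minimum of 5 TPM, which keeps fewer events, and 30, 26, 8, 2, 4 and 4 among events without transcripts holding both exons. At a PSI difference of 0.2 they were 37, 5, 5, 8 and 11 from testis on. With no minimum they were 142 in any gland, 141 in testis and 30 in vesicular gland. Another TPM minimum, or leaving out events with transcripts holding both exons, changes how many events are tested. Counts at those settings, here and for the breeds below, are thus not comparable with the main counts. Nothing is read from their rise or fall. Breed calls over all glands were 1, 10, 2 and 2 at a minimum of 5 TPM, with no minimum, at a PSI difference of 0.2 and without transcripts holding both exons. In testis they were 1 at 5 TPM, 13 with no minimum, 1 on the logit scale and 0 without transcripts holding both exons. In epididymis they were 0 at 5 TPM, 0 on the logit scale and 0 at a PSI difference of 0.2. With no minimum, vesicular gland had 1 and prostate gland 2. The breed by gland test called 2 with 0.1 TPM added, 0 on the logit scale and 0 without transcripts holding both exons. With 1 library left out, calls ranged from 60 to 74 in any gland, 55 to 65 in testis, 12 to 17 in epididymis, 10 to 19 in vesicular gland (10 without BMI or DSE vesicular gland replicate 3), 14 to 22 in prostate gland and 11 to 20 in bulbourethral gland (11 without BMI replicate 3). Breed calls ranged from 3 to 4 over all glands, 2 to 6 in testis (2 without BMI or DSE testis replicate 2 and 3 without BMI replicate 3), 1 to 1 in epididymis, 0 to 3 in vesicular gland, 0 to 1 in prostate gland, 0 to 0 in bulbourethral gland and 0 to 3 for breed by gland. The share of events using both forms changed sign with a PSI range of 0.05 to 0.95 in testis (1.58 percentage points), prostate gland (−0.317) and bulbourethral gland (−0.0614), and at 5 TPM in the same glands (1.60, −1.02 and −0.401). With a range of 0.2 to 0.8 testis was lower (−1.52, exact permutation adjusted p = 0.0464). With 1 library left out, bulbourethral gland ranged from −0.164 to 0.426, and was −0.115 without BMI replicate 1. With a pseudocount of 0.1 TPM, 14, 8, 15, 12 and 10 splicing regulators were called in testis, epididymis, vesicular, prostate and bulbourethral gland.

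Without DSE epididymis replicate 1 and DSE vesicular gland replicate 1, which had the lowest TIN (a measure of RNA integrity), calls were 69 in any gland, 62 in testis, 13 in epididymis, 17 in vesicular gland and 18 each in prostate and bulbourethral gland. Of the calls of named events, those of TPM2 in bulbourethral gland, PKM in vesicular gland and MAD1L1 in epididymis were lost.

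With a replicate block, calls were 71 in any gland, 63 in testis, 14 in epididymis, 18 in vesicular, 19 in prostate and 14 in bulbourethral gland. Between glands of 1 breed, same-numbered libraries correlated over 0.1 in 17 of 60 pairs (median r 0.0429). Differently numbered libraries did so in 20 of 120 pairs (median r −0.0153). Between breeds of 1 gland, where no animal can be shared, it was 1 of 15 same-numbered pairs. These values do not settle whether same-numbered glands came from 1 animal. The labels do not say so, and the block is given as an alternative only. The block ended 4 of the calls of named events. The TPM files carry no read counts, so PSI has no counting interval, and only 271 of the 407 events had 20 or more long reads.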
